A study of Canis lupus familiaris with 14 samples.

Results

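The tumors of 7 dogs with osteosarcoma were ranked by MKI67, and the 3 tumors with the most MKI67 transcript were compared with the 3 that had the least. The 6 tumors were chosen by MKI67 counts divided by the library total, out of 7 tumor libraries in a series of 14 that also holds bone of the same 7 dogs. MKI67 encodes Ki-67, a nuclear protein present in cycling cells and absent from resting cells, and it is used in pathology as a marker of proliferation. Cells in S phase copy their DNA with the MCM helicase, PCNA and nucleotide-producing enzymes, and cells in G2 and mitosis express CDK1, its cyclins and the kinases that build the spindle. The transcripts of S phase genes and of G2 and mitosis genes peak at different stages of the cycle.

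The study collected a piece of tumor and healthy bone from dogs whose limb was amputated before any chemotherapy. Polyadenylated RNA was sequenced, with 1 library for each tissue of each dog, so every group consists of different animals and differences between groups hold biological and technical variation together. The fast tumors came from dog F (Golden Retriever, right distal radius), dog C (Doberman Pinscher, left distal radius) and dog B (Rottweiler, left distal femur). The slow tumors came from dog A (Golden Retriever, left distal radius), dog G (Greyhound, right distal tibia) and dog E (Great Pyranees, left distal radius), and the middle tumor came from dog D (Greyhound, left proximal humerus). Bone was taken from phalanx P2 in all dogs. By the study's description of the patients, the fast dogs were castrated males and each was younger than each slow dog, the slow group held a castrated male and 2 spayed females, and no fast tumor had a lower RNA integrity number than a slow tumor. Age, sex and RNA integrity cannot be told apart from the groups in any comparison below. The words fast and slow stand here for MKI67 transcript level, since division itself was not measured. A tumor piece holds several cell types, and fewer cells of a type cannot be told apart from less RNA per cell.

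MKI67 had 280 CPM (counts scaled to the same total in every library) in dog F, 155 in dog C and 147 in dog B. It had 91.2 CPM in dog D. It had 75.4 CPM in dog A, 55.6 in dog G and 27.1 in dog E. These values chose the groups, and they are given as a description. The tumors beside the limits of the groups were dog B at 147 CPM, dog D at 91.2 CPM and dog A at 75.4 CPM.

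The place of dog A depended on the scale. The gene with the most counts in each slow tumor, which has no symbol in the tables used, took 8.02% of all counts in dog A, 17.5% in dog G and 26.3% in dog E, against 4.97% in dog F, 2.98% in dog C, 4.23% in dog B and, in the middle tumor, 2.96%. The 10 most abundant genes took 30.0% to 42.4% of the counts in the slow tumors and 12.1% to 13.5% in the fast tumors. A gene that takes many counts lowers the CPM of all other genes in that library, MKI67 included. TMM scaling, which sets the bulk of genes equal between libraries, gave factors of 1.22 to 1.25 in the fast tumors, 1.25 in dog D and 0.705 to 0.802 in the slow tumors. After division by these factors MKI67 was at 227 normalized CPM in dog F, 127 in dog C, 118 in dog B, 107 in dog A, 72.9 in dog D, 69.3 in dog G and 36.2 in dog E. On that scale dog A passed dog D and came close to the fast tumors. The mean of 61 G2/M and S phase genes without MKI67 returned the original groups on both scales, with log2 normalized CPM of 5.73 in dog F, 4.88 in dog C, 4.84 in dog B, 4.39 in dog D, 4.37 in dog G, 3.81 in dog A and 3.63 in dog E. Dogs D and G were nearly equal in this mean. Total counts ranged from 18650945 to 29801335 in the fast and from 22970681 to 32887213 in the slow tumors and did not differ beyond their spread (exact permutation test, two-sided p = 0.5, where 0.1 is the smallest p that 3 against 3 allows).

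**Figure D1:**
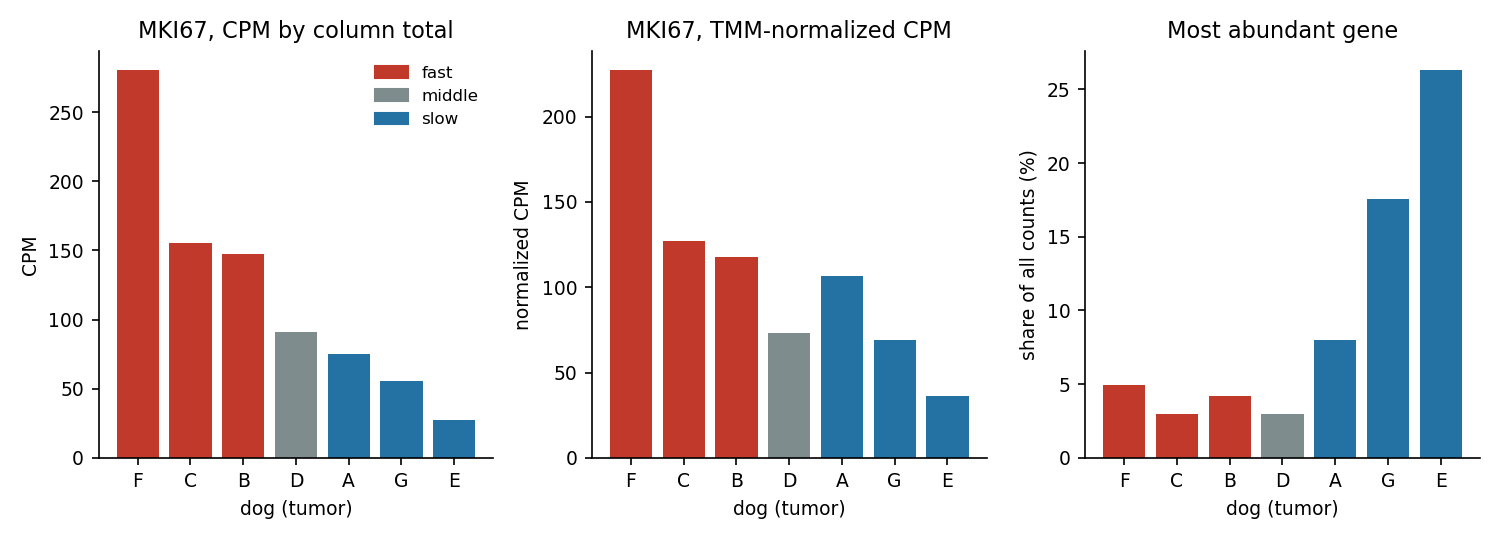
MKI67 in the 7 tumors as CPM by column total (left) and as TMM-normalized CPM (middle), and the share of all counts taken by the most abundant gene in percent (right), with 1 bar per tumor coloured by group. Dog A stands at 75.4 CPM below dog D at 91.2 CPM, and at 107 normalized CPM above dog D at 72.9. The share of the most abundant gene is 8.02% to 26.3% in the slow tumors and at most 4.97% in the others.

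Cell cycle genes followed MKI67 unevenly on the normalized scale. They describe what the ranking by MKI67 picked up and are no independent evidence of it. Of 38 tested G2/M genes, 32 were higher in all 3 fast than in all 3 slow tumors on the normalized scale, with a median log2 fold change of 1.497, while 10.2% of all 14328 genes tested were higher in this way and the median of all genes was 0.10. Of 23 S phase genes 5 were separated in this way, ATAD2, GMNN, E2F8, HELLS and DSCC1, with a median of 0.99, which was 0.55 without dog F. A list of 164 other cell cycle genes had 82 members above and 2 below, CDK5RAP2 and POLD2, with a median of 1.07, which was 0.66 without dog F. On column totals, the scale that chose the groups, the counts above were 38 of 38 G2/M, 18 of 23 S phase and 143 of 164 other cell cycle genes, against 42.3% of all genes. The share separated was larger among G2/M than among S phase genes on both scales, and this difference was not tested.

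CCNB1, a mitotic cyclin, was at 75.6, 41.2 and 27.7 normalized CPM in dogs F, C and B and at 15.6, 13.5 and 9.62 in dogs A, G and E. CDK1, the kinase that CCNB1 activates, was at 72.5, 44.5 and 32.7 against 9.13, 19.6 and 12.3. AURKA, a kinase of the mitotic spindle, was at 65.3, 34.7 and 33.4 against 15.4, 15.8 and 9.42. The groups did not overlap for these 3 genes. Their log2 fold changes were 1.90 (SE 0.44), 1.87 (SE 0.43) and 1.71 (SE 0.39). PLK1, another mitotic kinase, was at 124, 56.1 and 61.0 against 44.2, 43.5 and 27.1 normalized CPM, with a log2 fold change of 1.07 (SE 0.40).

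Other widely used proliferation genes did not separate the groups on the normalized scale, although TOP2A, PCNA, FOXM1, MYBL2 and CCNE1 did so in CPM by column total. TOP2A, the topoisomerase of dividing cells, was at 409, 160 and 161 normalized CPM in dogs F, C and B and at 266, 200 and 64.4 in dogs A, G and E, so that 2 slow tumors lay above 2 fast tumors. Its log2 fold change was 0.46 (SE 0.61), and it was -0.14 without dog F. RRM2, a subunit of ribonucleotide reductase, was at 138, 67.3 and 70.2 against 70.0, 203 and 45.0, with its highest level in slow dog G. E2F1, a transcription factor that starts S phase, was at 28.8, 30.1 and 18.8 against 17.2, 33.3 and 20.3. MCM2, part of the replicative helicase, was at 165, 62.4 and 59.2 against 49.6, 111.9 and 47.2, and its log2 fold change of 0.46 (SE 0.54) became -0.20 without dog F. The groups overlapped for these 4 genes. PCNA, the sliding clamp of replication, had a log2 fold change of 0.79 (SE 0.46), FOXM1 and MYBL2, transcription factors of the late cycle, had 0.72 (SE 0.42) and 0.83 (SE 0.53), and CCNE1, the cyclin of the start of S phase, had 0.84 (SE 0.43), all with overlapping groups in normalized CPM.

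Across all genes, the test found no gene that differed between fast and slow tumors at a false discovery rate (FDR) under 0.05. The edgeR quasi-likelihood test on 14328 genes with a mean of at least 1 CPM over the tumors, MKI67 left out, called 0 genes (0.0%), and the smallest FDR was 0.275. At an unadjusted p under 0.05 there were 914 higher (6.38%) and 1039 lower (7.25%) genes, together 1953 genes (13.6%). The Wald test of DESeq2 called 623 of the 14328 genes, of which 216 were higher and 407 lower, while limma-voom called 0. Without dog C the edgeR test called 1 gene, which has no symbol and had 4 counts in each of dogs F and B, 1762 in dog C and 1080 to 1798 in the slow tumors. All further differences are therefore given as values, and none of them passed the FDR in edgeR.

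By CPM on column totals, 3838 genes (26.8%) were higher in all fast than in all slow tumors with means over 2-fold apart, and 235 (1.64%) were lower. By normalized CPM the numbers were 676 higher (4.72%) and 862 lower (6.02%). The excess of higher genes was thus present on the scale that chose the groups and absent after TMM scaling. Library totals alone placed the median of all genes at a log2 fold change of 0.82, and TMM scaling placed it at 0.10. All values below are on the TMM scale unless stated, and the most abundant gene moves with the groups beside every one of them. Without the 2-fold limit, groups did not overlap for 10.2% of all genes above and 11.2% below in normalized CPM. On column totals the shares were 42.3% above and 2.05% below. With dog D added to the slow tumors, 570 of the 14328 genes were above and 501 below in normalized CPM. The counts of each list are to be read against these shares and numbers. Members of a list could be found only where a gene had a symbol, 1975 of the 14328 genes and mostly genes that the authors called between tumor and bone, so the tested members are a selected subset of each list, such as 11 of 29 interferon genes, while the shares cover all genes. Of the 676 higher genes, 107 belonged to the cell cycle lists, and 569 did not.

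The 12 named genes outside the cell cycle lists with the smallest p among the higher genes had log2 fold changes between 1.51 and 4.77. HOXC4, a homeobox transcription factor, was at 4.23, 13.2 and 11.2 normalized CPM in dogs F, C and B and at 1.23, 1.82 and 1.02 in dogs A, G and E. SQLE, the squalene epoxidase of cholesterol synthesis, was at 59.3, 92.2 and 24.3 against 14.4, 12.2 and 7.79. SALL1, a zinc finger transcription factor, was at 18.3, 43.6 and 12.7 against 6.11, 2.26 and 3.04. Their log2 fold changes were 2.81 (SE 0.58), 2.35 (SE 0.53) and 2.71 (SE 0.62), with edgeR FDRs of 0.296, 0.296 and 0.303. The choice by p and by the absence of overlap fixes that the groups of these genes are apart. In dog D, HOXC4 was at 24.9 normalized CPM, above all fast tumors, while SQLE at 11.0 and SALL1 at 1.54 lay with the slow tumors. With dog D in place of dog A in the slow group, the log2 fold change of HOXC4 was 0.0464.

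STRA6 and RARB, both of retinoid biology, were among these 12. STRA6, the membrane receptor for retinol uptake, was at 22.2, 10.7 and 39.5 normalized CPM in dogs F, C and B and at 7.65, 2.42 and 1.99 in dogs A, G and E. RARB, a retinoic acid receptor, was at 14.9, 16.1 and 4.78 against 1.17, 1.19 and 3.61. Their log2 fold changes were 2.59 (SE 0.71) and 2.58 (SE 0.70), both with an edgeR FDR of 0.313. In dog D they were at 0.44 and 3.11, on the side of the slow tumors. No retinoid list was compared.

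REXO5, an RNA exonuclease, was at 24.8, 19.8 and 29.1 against 9.20, 5.78 and 11.0 normalized CPM and had the smallest fold of the 12, at 1.51 (SE 0.35) on the log2 scale. ST14, the membrane protease matriptase, was at 4.73, 6.27 and 10.9 against 0.74, 0.91 and 2.03. GREB1L was at 13.4, 3.59 and 1.42 against 0.31, 0.12 and 0.41, with 18 counts in all in the slow tumors. GREB1L also differed widely among the fast tumors. SCML2, a Polycomb group protein, was at 3.12, 2.06 and 9.43 against 0.74, 0.55 and 0.93 normalized CPM.

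Interferon genes made up the list with the highest median in the main comparison. Of 11 tested members, 6 were higher in all fast than in all slow tumors (background 10.2%), and 8 had an unadjusted p under 0.05 (background 6.38%). The median log2 fold change was 2.79 against 0.10 for all genes. On column totals 7 members were above, against 42.3% of all genes. With dog D added to the slow tumors 6 were above. Without dog A 5 members were higher with a p under 0.05, while the number over all genes went from 914 to 478. DDX60, an interferon-induced helicase, was at 8.71, 193 and 64.5 normalized CPM in dogs F, C and B and at 1.11, 3.88 and 4.67 in dogs A, G and E, with a log2 fold change of 4.77 (SE 1.16). CGAS, the sensor of cytosolic DNA, was at 3.56, 11.7 and 5.45 against 1.17, 0.48 and 1.299. CCL8, a chemokine that attracts monocytes, was at 3.62, 9.33 and 8.81 against 0.37, 1.78 and 0.41. The edgeR FDRs of DDX60, CGAS and CCL8 were 0.303, 0.303 and 0.313.

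Dog C had the highest level of most interferon genes. OAS1, an enzyme that activates RNA decay in infected cells, was at 45.1, 380 and 67.1 normalized CPM in dogs F, C and B, at 18.2 in dog D and at 21.5, 38.2 and 25.8 in dogs A, G and E. OAS2 of the same family was at 103.5, 441 and 138 against 75.8, 78.7 and 42.8, and OAS3 at 13.8, 134 and 36.8 against 7.59, 5.66 and 13.4. The fast tumors were above the slow tumors for all 3 genes, but dog F, the tumor with the most MKI67, was within 1.5-fold of the highest slow tumor for each of them. IDO1, a tryptophan-degrading enzyme, was at 1.39, 5.52 and 52.2 against 0.93, 1.90 and 2.48, so that the groups overlapped. Summed over the list, normalized CPM was 228 in dog F, 1374 in dog C and 479 in dog B, 101 in dog D, and 165, 189 and 142 in dogs A, G and E. Without dog C the median of the list was 1.51, and with the bone of the same dogs as a paired reference it was 1.45. The 2 tested B cell genes had a higher median in both of these fits, at 2.04 and 2.86. Macrophage, T cell and B cell markers, which could bring interferon genes with them, are given with the other cell types, and their part in this difference was not tested.

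**Figure D2:**
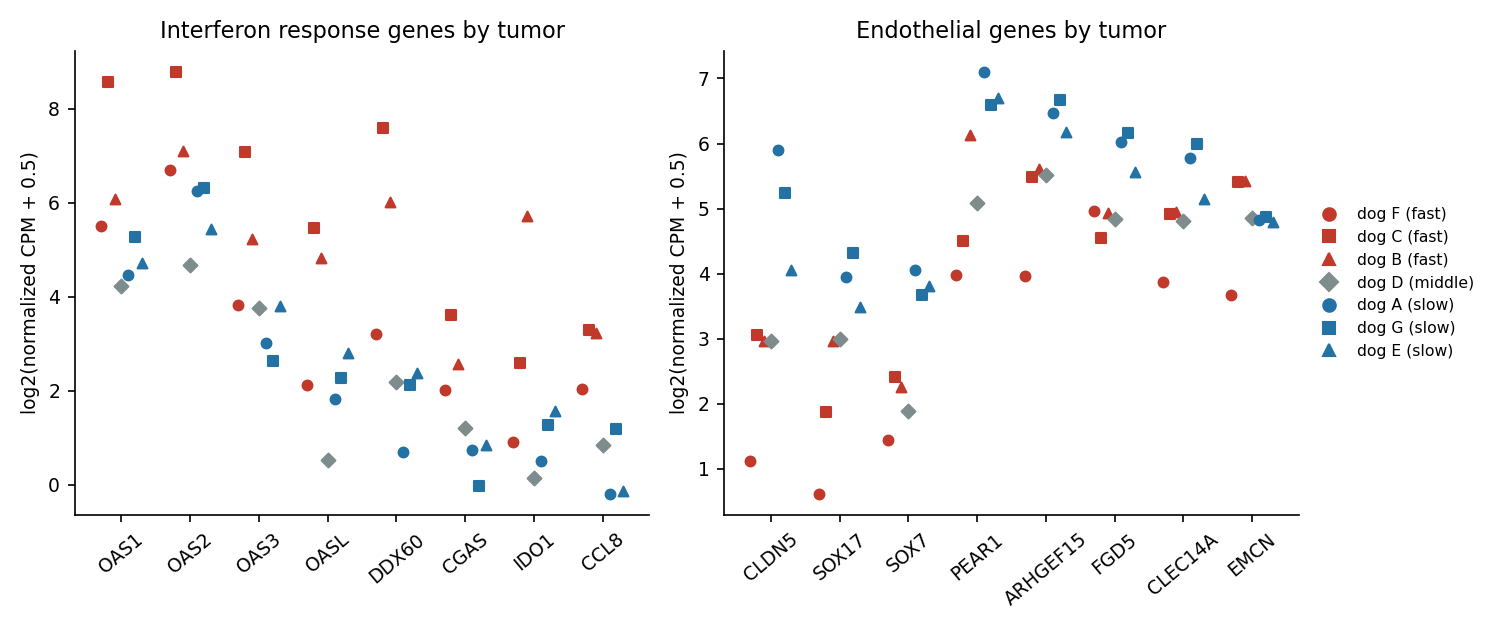
Log2 of normalized CPM plus 0.5 for 8 interferon response genes (left) and 8 endothelial genes (right) in each of the 7 tumors, with 1 point per tumor, coloured by group and shaped by dog. Dog C is the highest tumor for OAS1, at 380 normalized CPM, and for DDX60, at 193. All slow tumors lie above all fast tumors for the endothelial genes shown except EMCN, for which the groups overlap. The genes shown include members chosen after their values were seen. Of all 23 tested endothelial genes, the groups overlapped for 12, 3 were higher by sign in fast tumors, and 2 were below on column totals.

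Several cholesterol synthesis genes had their highest levels in dogs F and C. Of 8 tested members of the cholesterol and fatty acid list, SQLE alone had groups without overlap, a share near the 10.2% of all genes, and 4 had an unadjusted p under 0.05, all of them higher (background 6.38%). CYP51A1, the lanosterol demethylase, was at 62.2, 67.5 and 19.5 normalized CPM in dogs F, C and B and at 19.8, 17.4 and 12.7 in dogs A, G and E. SCD, the stearoyl-CoA desaturase, was at 120, 94.6 and 23.6 against 34.0, 17.1 and 26.4, and LSS, the lanosterol synthase, at 60.2, 48.7 and 21.3 against 22.6, 19.4 and 19.7. Dog B lay at the level of the slow tumors for these 3 genes. ACLY, which supplies acetyl-CoA to the pathway, had a log2 fold change of -0.05.

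The 12 named genes with the smallest p among the lower genes had log2 fold changes between -8.13 and -1.90. COL9A1, a collagen of cartilage, was at 0.08, 0.13 and 0 normalized CPM in dogs F, C and B and at 35.7, 9.66 and 13.8 in dogs A, G and E, with 6 counts in the fast and 1164 in the slow tumors. In dog D it was at 0.35. LTBP4, which binds latent TGF-beta in the matrix, was at 61.4, 66.9 and 152 against 507, 477 and 384, with a log2 fold change of -2.29 (SE 0.44). GAS6, a ligand of the TAM receptor kinases, was at 42.9, 99.6 and 87.5 against 355, 305 and 280, with a log2 fold change of -2.03 (SE 0.38). The edgeR FDRs were 0.283 for COL9A1 and 0.296 for LTBP4 and GAS6.

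NTRK2, the receptor kinase for BDNF, was at 1.20, 0.31 and 2.69 normalized CPM in dogs F, C and B, at 1.01 in dog D and at 25.9, 23.5 and 19.1 in dogs A, G and E. PIEZO2, a mechanosensitive ion channel, was at 19.3, 30.3 and 39.9, at 24.6 in dog D and at 134, 121 and 78.9. PDE2A, a phosphodiesterase of cyclic nucleotides, was at 13.3, 24.4 and 31.3, at 55.0 in dog D and at 181, 159 and 76.8. All fast tumors were below all slow tumors for these genes, as the rule requires, and dog D lay on the side of the fast tumors for NTRK2 and PIEZO2 and between the groups for PDE2A. Their log2 fold changes were -4.01 (SE 0.75), -1.90 (SE 0.37) and -2.60 (SE 0.47).

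ADM encodes adrenomedullin, a vasodilator peptide that rises in hypoxia, and it was at 2.84, 2.497 and 6.56 against 18.8, 34.5 and 20.6 normalized CPM. ADM5, of the same peptide family, was at 2.62, 2.15 and 11.96 against 91.1, 128 and 48.7. MADCAM1, an adhesion molecule of vessels that binds lymphocytes, was at 0.64, 0.75 and 2.47 against 15.8, 20.04 and 8.08. DIO2, which activates thyroid hormone, was at 1.42, 0.70 and 1.504 against 7.96, 27.2 and 7.39. HPD, an enzyme of tyrosine breakdown, was at 0.61, 0.22 and 1.08 against 11.4, 15.8 and 5.11, and PDZK1IP1, a small membrane protein, at 0.67, 0.83 and 1.02 against 8.27, 6.54 and 3.98. The log2 fold changes of these 6 genes lay between -4.06 for HPD and -2.63 for ADM.

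Genes without a symbol are given by their identifier. ENSCAFG00000032583 was at 35.6, 62.7 and 40.7 normalized CPM in the fast and at 6.48, 6.06 and 7.83 in the slow tumors, and ENSCAFG00000018051 at 18.5, 21.95 and 18.03 against 1.85, 3.45 and 1.58. ENSCAFG00000019990 was at 13.0, 13.8 and 16.3 against 77.5, 57.2 and 66.1, and ENSCAFG00000003591 at 0.89, 1.49 and 1.34 against 22.5, 45.9 and 15.7. The edgeR FDR was 0.275 for ENSCAFG00000032583, ENSCAFG00000019990 and ENSCAFG00000003591 and 0.283 for ENSCAFG00000018051. The DESeq2 Wald test put all 28 of these genes, with and without a symbol, under an FDR of 0.05. The genes were chosen by p and by lack of overlap in the same 6 tumors, so this adds no independent support.

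**Figure D3:**
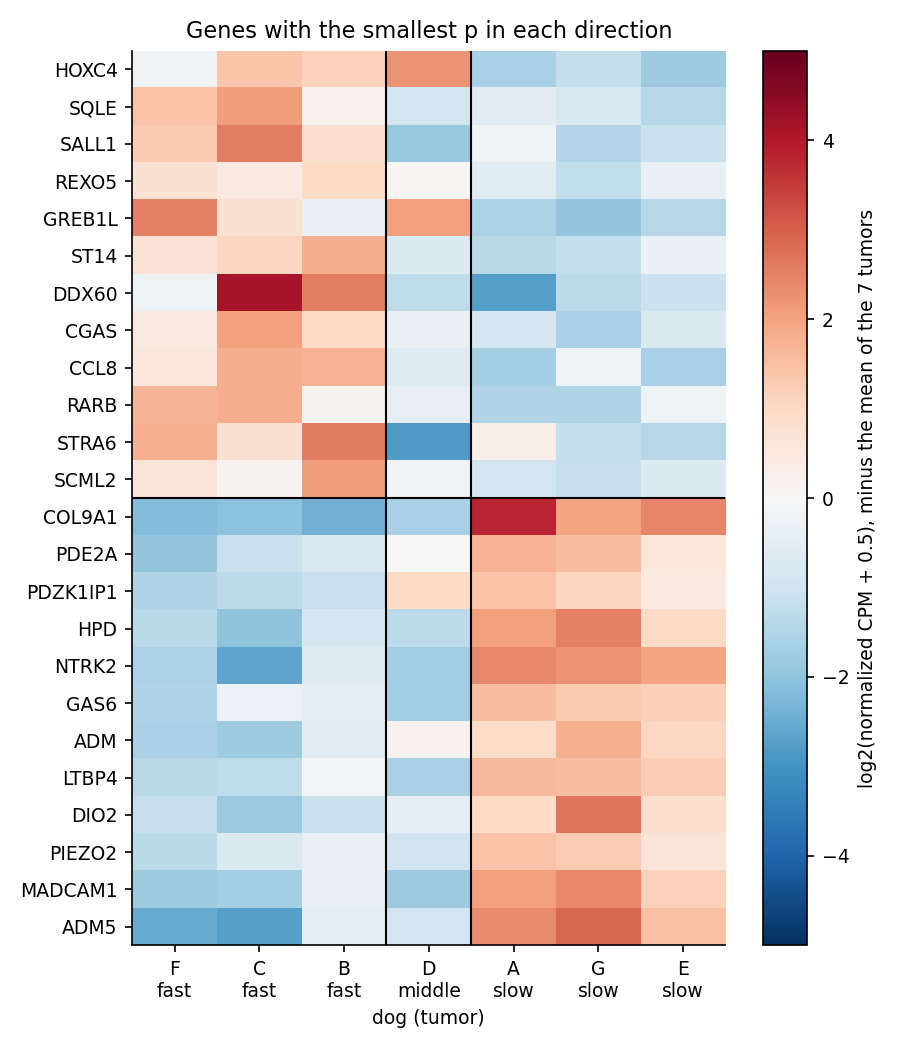
Heatmap of the 12 named genes with the smallest p in each direction (rows, higher genes above the line) in the 7 tumors (columns), coloured by log2 of normalized CPM plus 0.5 minus the mean of the 7 tumors. The rule chose genes whose fast and slow tumors do not overlap. Dog D is in or past the fast range for 2 of the 12 higher and 7 of the 12 lower genes.

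Endothelial genes were lower by sign in fast tumors in 20 of 23 tested members. Of the 23, 11 were lower in all fast than in all slow tumors (background 11.2%), 11 had an unadjusted p under 0.05 and were lower (background 7.25%), and 0 were higher in all fast tumors. With dog D added to the slow tumors 3 members were below, while the number over all genes went from 1606 to 501. Without dog A 5 members were lower with a p under 0.05, while the number over all genes went from 1039 to 705. By CPM on column totals 2 members were below, against 294 of all genes (2.05%). The median log2 fold change was -1.04, and it was -0.33 with library totals alone. CLDN5, the tight junction claudin of endothelium, was at 1.67, 7.80 and 7.31 normalized CPM in dogs F, C and B and at 59.5, 37.2 and 16.2 in dogs A, G and E, with a log2 fold change of -2.75 (SE 0.72). SOX17 and SOX7, endothelial transcription factors, had log2 fold changes of -1.97 (SE 0.70) and -1.89. The list was not uniform, since EMCN, an endothelial surface mucin, was at 12.2, 42.1 and 42.5 against 28.0, 28.8 and 27.1, and ESM1, a secreted marker of tip cells, was at 18.1, 15.8 and 29.8 against 9.87, 7.68 and 24.1. Summed normalized CPM of the list was 285, 528 and 719 in dogs F, C and B, 564 in dog D and 1036, 1025 and 805 in dogs A, G and E, so that the sums did not overlap. Pericyte genes had a median of -0.92 over 5 tested members, which was -1.66 without dog B. With dog D added to the slow tumors 0 members were below without overlap, on column totals 1 was, and in normalized CPM 2 were: PDGFRB, the receptor that marks pericytes and fibroblasts, at 197, 115 and 240 against 530, 477 and 465 normalized CPM, and KCNMB1 at 3.26, 4.43 and 17.0 against 38.9, 29.3 and 19.6.

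Collagen and matrix genes were lower in fast tumors in 16 of 20 tested members by sign, against 6365 of all 14328 genes, and 5 were below without overlap (background 11.2%), or 2 with dog D added to the slow tumors and 2 on column totals. SFRP2, a secreted Wnt modulator made by matrix-forming cells, was at 68.2, 297 and 472 normalized CPM in dogs F, C and B and at 1685, 1503 and 4251 in dogs A, G and E. COL5A1, a collagen that nucleates fibrils, was at 1403, 1259 and 1334 against 2837, 3757 and 4848, and COL6A1, a collagen of microfibrils, at 4246, 4658 and 5299 against 10687, 15323 and 8790. THBS2 was at 174, 16.4 and 435 against 719, 1893 and 1646. The median of the list was -0.80, and it was -0.08 with library totals alone. TNC, a matrix protein of tumors, went against the list with 4859 normalized CPM in dog F, while dog C at 771 lay below the slow tumors at 1118 to 2292 and dog B at 1147 lay within their range. In the bone of the same dogs the list had a median of -0.73, with 3 members below without overlap (background in bone 4.2%).

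Genes of the Wnt pathway, which controls growth and bone formation, had a median of -0.85 over 21 tested members, with 6 below and 0 above without overlap (background 11.2% below), or 2 below with dog D added to the slow tumors and 3 on column totals. LRP5, a Wnt co-receptor, was at 26.2, 37.0 and 47.2 normalized CPM against 88.4, 83.2 and 92.3. The ligand WNT2 was at 0.25, 0 and 0.13 against 2.96, 6.73 and 1.66, with 14 counts in the fast and 259 in the slow tumors. WIF1, a secreted Wnt inhibitor, was at 205, 8146 and 4.33 against 214, 20.3 and 178, and its log2 fold change of 4.34 (SE 2.22) became -0.39 without dog C. Growth factors and receptors had a median of -0.85 over 19 tested members, which was -0.37 without dog E, with 3 below without overlap, NTRK2, FGF1 and PDGFRB (background 11.2%), and 0 below with dog D added to the slow tumors. IGF2BP1, an RNA-binding protein of fetal tissue, was at 45.2 and 48.6 in dogs F and B, at 1.18 in dog C and at 0.08 to 2.96 in the slow tumors, with a log2 fold change of 4.94 (SE 1.74).

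Glycolysis and hypoxia genes were mostly lower by sign in fast tumors. Of 16 tested members, 0 were above and 5 were below without overlap (background 11.2%), or 2 below with dog D added to the slow tumors and 2 on column totals, and the median was -0.48, which turned to 0.24 with library totals alone. CA12, a carbonic anhydrase induced by hypoxia, was at 0.56, 0.26 and 12.1 normalized CPM in dogs F, C and B and at 23.1, 72.2 and 21.9 in dogs A, G and E, and ADM is described above. The glycolytic enzymes LDHA, PGK1 and GAPDH had log2 fold changes of -0.47, -0.12 and -0.41 with overlapping groups. Immediate early genes, which respond to growth factors and stress within minutes, had a median of -0.25. It turned to 0.44 with library totals alone and was -0.75 without dog C and -0.08 without dog E. Of 13 tested members, 3 were below without overlap (background 11.2%). With dog D added to the slow tumors 2 were below (501 of all 14328 genes), and on column totals 0 were (background 2.05%). FOS was at 26.2, 63.4 and 57.3 against 78.9, 139 and 315, NR4A3 at 2.76, 0.79 and 2.88 against 5.37, 8.63 and 3.90, and JUNB at 77.2, 124 and 106 against 204, 227 and 310 normalized CPM.

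Genes of cell growth had medians near that of all genes. Ribosome biogenesis genes had a median of -0.07 over 25 tested members, with 2 above and 1 below without overlap (background 10.2% and 11.2%), and the largest changes were POP1 at 0.99 (SE 0.48) and NOP2 at 0.96 (SE 0.49). The nucleotide and one-carbon synthesis list had a median of 0.03 over 19 tested members. It had 3 members above, DCK, PSAT1 and TXNDC16, and 1 below, NT5E, against the same shares of all genes. TXNDC16 and NT5E are counted as the list holds them, although neither is an enzyme of nucleotide synthesis. DCK, the deoxycytidine kinase, was at 9.35, 6.92 and 4.25 against 2.35, 3.25 and 3.13 normalized CPM, and NT5E, the enzyme CD73, at 9.72, 23.2 and 37.9 against 44.2, 177 and 59.7, with 231 in dog D. The medians were 0.13 for 30 chaperones, 0.27 for 10 proteasome genes, 0.21 for 19 splicing genes, 0.18 for CYCS and ATP5MC1 of oxidative phosphorylation and 0.23 for 17 chromatin writers, close to the 0.10 of all genes. Without dog A the proteasome median was 0.51 (all genes 0.12), and without dog F the chaperone median was -0.14 (all genes 0.05). CCT2, a subunit of the chaperonin that folds tubulin and actin, was at 259, 200 and 590 against 123, 137 and 98.4, with a log2 fold change of 1.55 (SE 0.46), and CCT8 of the same complex had 1.02 (SE 0.56). The log2 fold changes were 0.76 (SE 0.34) for PSMD11, 0.67 (SE 0.28) for PSMA5, 1.15 (SE 0.64) for SRSF5, 0.76 (SE 0.41) for SRPK1 and 1.14 (SE 0.67) for UHRF1.

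Inhibitors of the cycle were represented by CDKN1B at 0.77 (SE 0.80) and RBL2 at 0.19 (SE 0.32), both with overlapping groups, and both turned sign under other settings. TERT, the catalytic subunit of telomerase, was at 2.42, 19.6 and 4.35 normalized CPM in dogs F, C and B, at 0.75 in dog D and at 2.35, 2.22 and 0.53 in dogs A, G and E. The fast tumors were above the slow ones, but dog F was at 2.42 against 2.35 in dog A, and the edgeR FDR was 0.356. TERF2IP, a telomere-binding protein, had a log2 fold change of -0.14 (SE 0.28).

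Bone-forming genes varied within both groups. Among 13 tested osteoblast genes the median was -0.14, with 1 above, DLX6, and 2 below, LRP5 and SERPINH1 (background 10.2% and 11.2%), and BGLAP, which encodes osteocalcin, was at 53.5, 293 and 51.2 normalized CPM against 89.6, 34.5 and 179. The median was 1.003 without dog E and -0.84 without dog C, and with dog D added to the slow tumors 0 members were above and 0 below. All 7 tumors carried BGLAP transcript. MMP13, a collagenase of bone and cartilage, was at 8.10, 58.1 and 33.2 against 219, 51.9 and 1015, with a log2 fold change of -3.69 (SE 1.20). The osteocyte genes MEPE and SOST were at 127 and 124 in dog E, at most 1.98 in the other slow tumors, and at most 10.8 in the fast tumors, so that their log2 fold changes of -6.54 (SE 2.24) and -3.46 (SE 2.39) rested on dog E. CHAD, a cartilage matrix protein, was at 12.7, 73.5 and 3.6 against 148, 45.1 and 731. The list medians were -0.94 for 5 osteocyte and -1.04 for 5 chondrocyte genes. The osteocyte median was 1.83 without dog E and -2.94 without dog B, and the chondrocyte median was 0.02 without dog A and -2.84 without dog B.

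Markers of other cell types were compared to show what else moved with the groups. Osteoclast genes had a median of -1.17 over 7, with 1 below without overlap, MMP9 (background 11.2%, and 0 below on column totals), and their summed normalized CPM was 213, 1399 and 1854 in dogs F, C and B and 4431, 1196 and 3037 in dogs A, G and E, against 21399 in dog D. The median was -0.59 without dog F. OCSTAMP, needed for osteoclast fusion, was at 177 in dog D and at most 25.9 elsewhere, with a log2 fold change of -1.47 (SE 1.11). Macrophage genes had a median of 0.64 over 9 with 0 separated, and their sum was 321, 626 and 1556 in the fast and 616, 559 and 355 in the slow tumors. CD86, a costimulatory protein, and CD5L, a secreted macrophage protein, had log2 fold changes of 1.33 (SE 0.52) and 3.11 (SE 1.90). T and NK cell genes had a median of 0.32 over 20 with 0 separated, and their sum of 110, 253 and 694 overlapped the 129, 253 and 352 of the slow tumors. Without dog B the medians of the macrophage and T cell lists were -0.14 and -0.96, and that of the 2 B cell genes went from 1.77 to 0.07. Without dog F the macrophage and T cell medians were 1.07 and 0.81, and without dog E the T cell median was 1.05. The log2 fold changes were 1.68 (SE 1.05) for IL7R and 1.57 (SE 0.75) for CD48 of T cells, 2.67 (SE 1.70) for CXCL13, of whose 246 counts in the fast tumors 227 were in dog B, and 0.87 (SE 0.65) for CD37 of the B cell list, and 0.02 (SE 0.85) for CD1A8, the antigen presentation gene tested.

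Neutrophil genes had a median of -0.69 over 4, with CXCL8, a neutrophil chemoattractant, at -0.99 (SE 1.24) and highest in slow dog G, and without dog G the median was 1.08. Inflammatory cytokines had a median of -0.01 over 9, which was -0.78 without dog B, with IL6 at 1.45, 0.44 and 19.0 against 20.2, 99.1 and 12.1 normalized CPM, and LOC403585 at 145 in dog B, 3.67 in dog F, 8.45 in dog A and 0 in the other 4 tumors. Adipocyte genes had a median of -0.74 over 17, which was -0.08 without dog A, with 1 above and 3 below (background 10.2% and 11.2%), or 3 above and 0 below on column totals, and DGAT2, an enzyme of triglyceride synthesis, was at 0.89, 2.10 and 4.11 against 7.34, 17.7 and 4.34. CIDEA, a lipid droplet protein, had -2.23 (SE 1.55). Skeletal muscle genes had a median of 0.23 over 11, which was -0.43, -0.31 and -0.26 without dogs F, B and E, with SGCA at -2.09 (SE 0.87) and MYL1 at 17.0 normalized CPM in dog D and at most 1.45 elsewhere. Schwann cell genes had a median of -0.24 over 8, which was 0.31 and 0.19 without dogs F and A, with PMP22 at -0.80 (SE 0.44) and GFRA1, the GDNF co-receptor, at 22.8 and 18.9 in dogs F and B and at most 0.28 in every other tumor. ALAD, of heme synthesis, had -0.47 (SE 0.38) as the tested member of the erythroid list.

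Limb position genes are transcription factors that keep a record of where in the limb a cell arose, and each group held 1 hindlimb tumor. Of 13 tested members, HOXC4 and HOXC10 were above and SHOX was below without overlap (background 10.2% and 11.2%). With dog D added to the slow tumors 1 was above and 0 below, and on column totals 5 were above and 0 below. HOXC10 was at 11.5, 9.38 and 20.2 normalized CPM in the fast and at 5.06, 4.36 and 0 in the slow tumors, and SHOX at 0, 0 and 1.13 against 1.60, 2.495 and 13.7. The median of the list was 1.23, and it was 0.10 without dog C and 0.27 with the bone of the same dogs as a paired reference. PITX1, which marks the hindlimb, was at 22.7 in dog B and 35.8 in dog G and at most 6.67 in the forelimb tumors, so the groups were balanced for it with a log2 fold change of -0.54.

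**Figure D4:**
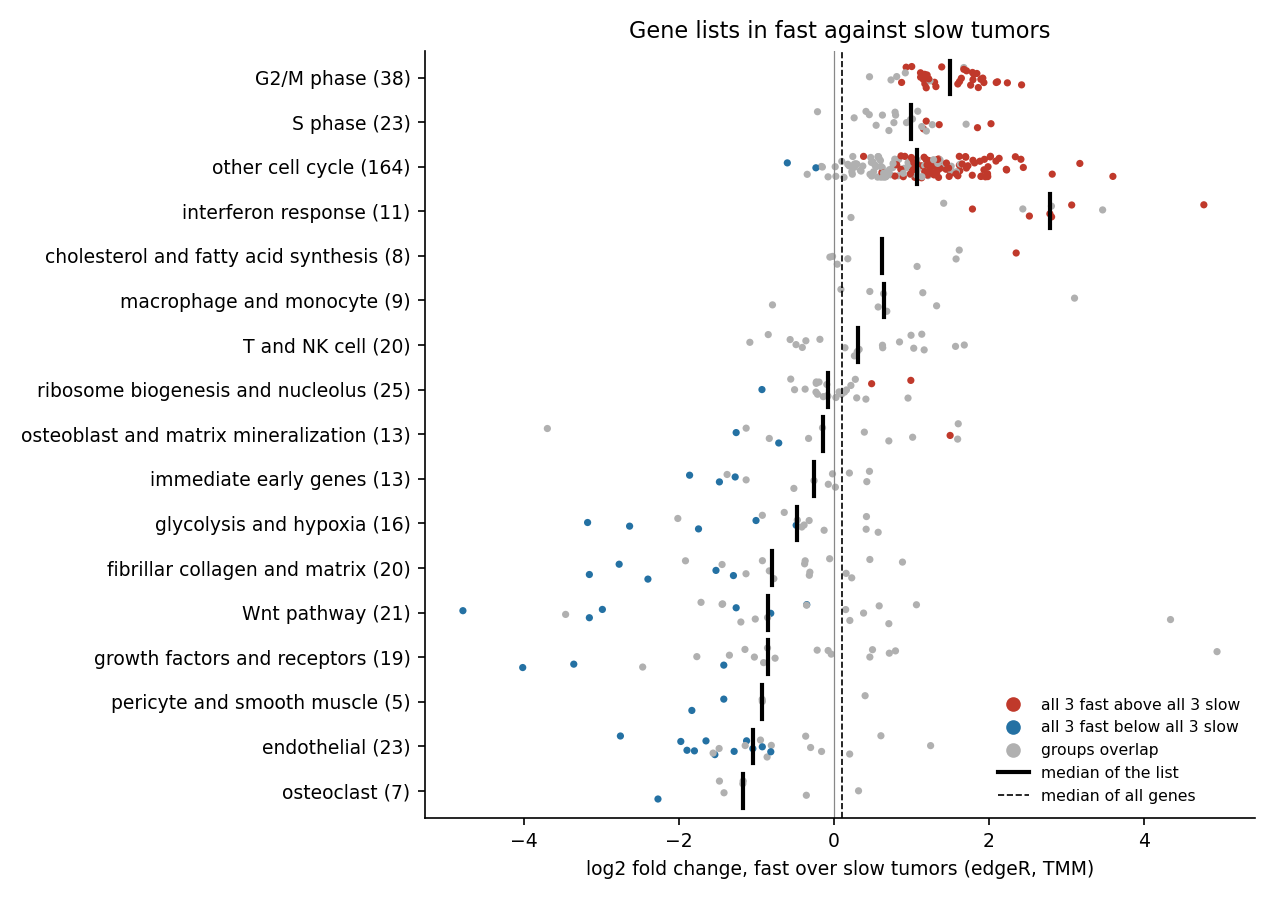
Log2 fold change of fast over slow tumors (edgeR with TMM scaling) for the tested members of 17 gene lists, with 1 point per gene and the number of genes in parentheses. Red points are genes with all 3 fast tumors above all 3 slow tumors, blue points those with all 3 below, and grey points overlap; black bars are list medians and the dashed line is the median of all genes at 0.10. G2/M genes lie to the right at a median of 1.497, interferon genes at 2.79 and endothelial genes to the left at -1.04.

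The middle tumor of dog D was not used in the comparison and was set beside both groups. By MKI67 it lay between the groups on column totals, at 91.2 CPM. Of the 107 cell cycle genes that were higher in fast tumors without overlap and over 2-fold, dog D was in or past the fast range for 31 (29.0%), between the groups for 52 and in or past the slow range for 24. Of the 569 other higher genes it was in or past the fast range for 361 (63.4%), and of the 862 lower genes for 612 (71.0%). Among these separated genes outside the cell cycle lists, dog D thus lay with the fast tumors for most, although its MKI67 was nearer to the slow tumors. Of the 12 named higher genes, it was in or past the slow range for 7. Its share of counts in the most abundant gene, 2.96%, and its TMM factor, 1.25, were also those of the fast tumors. With MKI67 as a continuous measure over all 7 tumors, 0 genes passed the FDR in edgeR and 1432 had an unadjusted p under 0.05. With dog D in the slow group 0 genes passed and 1319 had an unadjusted p under 0.05, and with dog D in the fast group 0 genes passed and 2362 did.

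**Figure D5:**
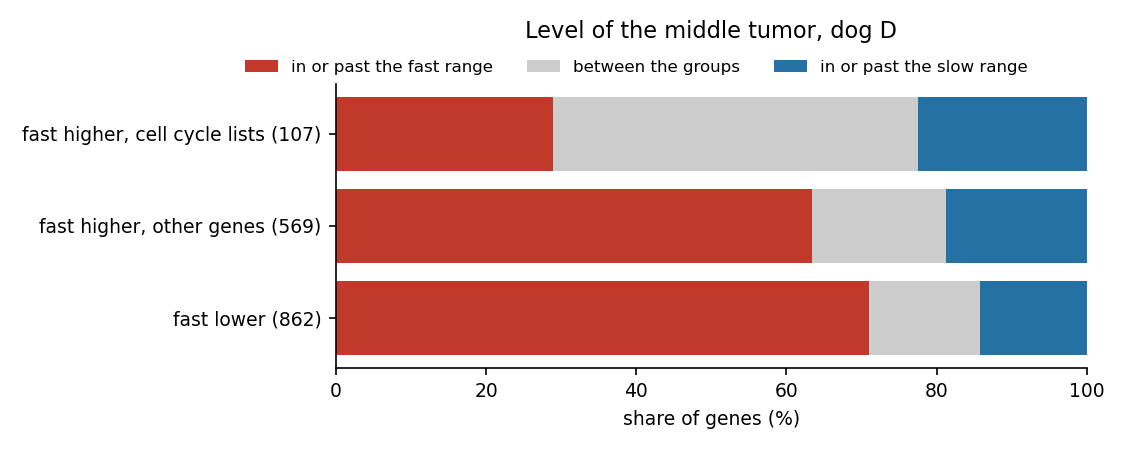
Share of genes in percent for which the middle tumor, dog D, lay in or past the range of the fast tumors (red), between the groups (grey) or in or past the range of the slow tumors (blue), for genes whose groups were over 2-fold apart without overlap, with the number of genes in parentheses. The red share is 29.0% for cell cycle genes, 63.4% for other genes higher in fast tumors and 71.0% for genes lower in fast tumors.

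The bone of the same dogs was ordered differently by MKI67. MKI67 in bone was at 19.5, 14.3 and 7.05 CPM in dogs F, C and B and at 17.4, 9.86 and 7.74 in dogs A, G and E, and at 16.7 in dog D. The means were 13.6 ± 6.23 CPM (SD, n = 3) and 11.7 ± 5.10 CPM (SD, n = 3), which differed by less than their spread (exact permutation test, two-sided p = 0.8, smallest possible 0.1). In normalized CPM the order of the means turned, with 11.98 ± 4.98 (SD, n = 3) in the bone of fast and 13.3 ± 3.94 (SD, n = 3) in that of slow dogs (exact permutation test, two-sided p = 0.7). The log2 CPM of MKI67 in bone and tumor of the 7 dogs had a Pearson r of 0.492 (exact permutation p = 0.266, adjusted 0.354) and a Spearman rho of 0.429 (exact permutation p = 0.354, adjusted 0.354), and r was -0.212 without dogs E and F, the 2 farthest from the median log2 CPM in tumor. In normalized CPM r was 0.12 (exact permutation p = 0.747). Without dog B, r was 0.834 (exact permutation p = 0.0306).

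Across 14239 genes tested in these bones, edgeR called 0 at an FDR under 0.05 (0.0%) and 697 had an unadjusted p under 0.05 (4.9%). Of the genes that were higher in fast tumors without overlap and over 2-fold, 585 could be tested in bone, and 101 of them (17.3%) were also higher in the bone of the fast dogs without overlap, against 6.67% of all genes in bone. Of the lower genes 828 could be tested, and 64 (7.73%) were lower in bone without overlap, against 4.2% of all genes. The share was 11.2% for the cell cycle genes, 11 of 98. The median log2 fold changes in bone were 0.18 for the higher and -0.23 for the lower genes, against 1.39 and -1.65 in tumor. Of the 24 named genes of the heatmap, 18 could be tested in bone, and DIO2 alone was separated in the direction it had in tumor, at 0.78, 1.302 and 1.14 against 2.27, 1.37 and 2.18 normalized CPM. With the dog as a replicate block and tumor set against bone of the same dog, 0 genes passed the FDR and 1148 had an unadjusted p under 0.05. In that paired fit the medians were 1.26 for G2/M genes, 1.45 for interferon genes, -1.16 for endothelial genes and -0.24 for matrix genes.

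The same lists were read with the slow group set by MKI67 in normalized CPM, which exchanges dog A for dog D and was chosen after seeing the data. edgeR called 0 genes and 855 had an unadjusted p under 0.05. The median log2 fold changes were then 1.21 for G2/M, 0.90 for S phase, 2.58 for interferon, -0.82 for endothelial, -0.73 for matrix and -0.44 for Wnt genes. Osteoclast genes went to -2.79, since dog D holds the highest levels of that list. Without dog A the medians were 1.41, 0.78, 2.69, -1.04, -0.71 and -0.67 for the same 6 lists.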

How the data were processed

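Bone and tumor of 7 dogs were sequenced (14 libraries). The authors trimmed reads with Trimmomatic, mapped them with HISAT2 2.2.1 to CanFam3.1 and counted them per Ensembl gene with StringTie 1.3.3, by the submitters' processing notes; the deposited values are raw counts without normalization. Strand and multi-mapping settings are not given in the sources used here, so near-identical copies, overlapping and antisense genes are uncertain. Total counts were 18650945 to 32887213 per tumor library. Symbols came from supplementary tables held in part, 1975 of the 14328 tested genes, mostly genes the authors called between tumor and bone.

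Tumors were ranked by MKI67 CPM. Genes with a mean of at least 1 CPM over the 7 tumors, without MKI67, were tested, 3 against 3, by edgeR 4.0.16 (quasi-likelihood, R 4.3.3). P-values were adjusted by Benjamini-Hochberg (FDR). TMM factors came from all 7 tumors; normalized CPM is CPM over that factor. No overlap means all 3 values of a group lie beyond the other 3. DESeq2 1.42.0, limma 3.58.1, other filters, scalings and groupings, and leaving out each dog were alternatives. Exact permutation tests used SciPy 1.17.1. The edgeR script was tested on simulated counts.

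Named genes, outside MKI67 and the cell cycle lists, were the 12 with a symbol and the smallest p in each direction among those without overlap in CPM and over 2-fold, 2 without a symbol in each direction, the members of each of 36 lists with an FDR under 0.05 or else the 2 with the largest change, and 12 cell cycle genes as a description; 2 genes that the rule names are not reported here. Other named list members were chosen after their values were seen. The groups, members and lists were chosen with earlier results of these data known. Bone and tumor of a dog come from the same animal; deviations from the tissue mean correlated within dogs at 0.088 to 0.205, and the replicate block by dog was the paired alternative.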

Additional observations from a re-analysis of the deposited data

How the results depend on the processing

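The count of 0 genes between fast and slow tumors rose to 623 with the DESeq2 Wald test and was 0 to 1 with 1 tumor left out; it was 0 with limma-voom, DESeq2 size factors, other filters and groupings, library totals alone and the replicate block. In bone the count of 0 was 38 with DESeq2, 1 with all genes with a count, and 0 to 1 with 1 bone left out (1 without dog F, dog G or dog E, each a gene with no counts or 1 count in some dogs). Genes without overlap and over 2-fold numbered 3838 higher and 235 lower by CPM, 676 and 862 by normalized CPM, and 680 and 125 by CPM at 4-fold. Pearson's r of MKI67 in bone and tumor lay between 0.223 and 0.834 with 1 dog left out. The causes were not tested. None of the 24 genes of the heatmap changed sign under any alternative. They were chosen by p and by lack of overlap between the fast and slow tumors. Leaving out a dog or changing the test, filter or scaling of the same tumors could therefore hardly turn a sign. For these alternatives the unchanged sign is no evidence of robustness. Alternatives that bring in dog D or the bone were not fixed by the choice in this way. The values nearest to 0 were 0.0464 for HOXC4 with groups by MKI67 in normalized CPM and -0.734 among the lower genes. With a continuous term the value is per doubling of MKI67.

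Log2 fold changes that turned sign belonged to genes with small or uneven differences. With MKI67 as a continuous term they were -0.0402 for CDKN1B, -0.0221 for RBL2, -0.155 for CD1A8 and 0.105 for RRM2. With MKI67 in normalized CPM as that term they were -0.265 for CDKN1B, -0.0897 for RBL2, -0.0281 for SRSF5, 0.0434 for TERF2IP, -0.0306 for CD37, -0.348 for CD1A8, 0.013 for SGCA, -1.07 for MYL1, 0.174 for PMP22 and 0.252 for RRM2. With groups by MKI67 in normalized CPM they were -0.0152 for CYCS, 0.143 for TERF2IP, -0.0546 for CD1A8, -3.52 for MYL1 and 0.139 for PMP22. With dog D in the fast group they were 1.07 for MMP9, 1.65 for OCSTAMP, -0.0981 for CD1A8 and 0.85 for CIDEA, and with dog D in the slow group 0.0309 for TERF2IP and -3.15 for MYL1. With library totals alone they were 0.587 for TERF2IP, 0.251 for ALAD and 0.467 for RRM2, with limma-voom 0.222 for CXCL8, -0.311 for CD1A8 and 0.00459 for RRM2, and with the replicate block 0.421 for RRM2.

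With 1 dog left out the ranges were -0.00729 to 0.447 for RBL2, -0.0451 to 0.48 for CYCS, -0.00232 to 0.415 for ATP5MC1, -6.81 to 3.04 for SOST, -1.67 to 1.91 for CXCL8, -0.733 to 0.719 for CD1A8, -0.594 to 13.5 for LOC403585, -4.77 to 6.84 for MYL1, -0.387 to 4.93 for WIF1, -0.139 to 0.882 for TOP2A, -0.195 to 0.983 for MCM2, -0.627 to 0.676 for RRM2 and -0.0489 to 0.465 for E2F1. Depth limits genes with few counts, such as COL9A1 with 6 counts in the fast tumors.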
